A study of Mus musculus with 12 samples.

Results

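In mouse dorsal root ganglia, 311 genomic regions carried less 5-hydroxymethylcytosine (5-hmC) than control ganglia both after a lesion of the peripheral branch of the sensory axon (PL) and after a lesion of its central branch in the dorsal column (DCL). They were taken from the authors' deposited tables of differential regions, as the regions whose PL average lay below the control average and that overlapped, by at least 1 bp, a region whose DCL average lay below the control average. The PL table listed 12244 regions, of which 6067 (49.6%) were lower after PL. The DCL table listed 35242 regions, of which 6034 (17.1%) were lower after DCL. The 311 shared regions were 5.13% of the lower PL regions and 5.15% of the lower DCL regions, and they formed 311 pairs of 1 region from each table. The tables hold 70430 regions in all, counting the table that set PL against DCL. Because these averages chose the regions, the size of the loss is a description and carries no test.

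The study asked how 5-hmC changes in sensory neurons when their axon is cut on the side that regrows or on the side that does not. Ganglia L4 to L6 were taken 24 h after PL or DCL, and 5-hmC was captured from their genomic DNA and sequenced. The 3 groups were PL, DCL and uninjured control, with 3 libraries each, and the ganglia of 3 animals were pooled for every library, so the spread between libraries is the spread between pools. Control ganglia were the contralateral ganglia of the PL animals, whereas the DCL ganglia came from other animals, so DCL and control also differ by animal, and control ganglia came from operated animals. The labels give no strain, sex or age, and they do not tie a PL pool to a control pool. Both contrasts use the same control libraries, so the losses after PL and after DCL are not independent of each other. No RNA data were used here, so the tissue could not be checked against marker genes, and the 3 input libraries were not analysed here.

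5-hmC is made from 5-methylcytosine by the TET dioxygenases, and it is both a step on the way to an unmethylated cytosine and a fairly stable mark in its own right. It is abundant in neurons, where it accumulates over the bodies of transcribed genes and at enhancers. Sensory neurons of the ganglion send one axon that splits into a peripheral and a central branch, and the peripheral branch regrows after injury while the central branch does not, which makes the pair of lesions a standard comparison.

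Sequences are shown for the 3 genes whose start site lay nearest to a shared lost region, and for the only miRNA among the 20 genes with the largest loss after both lesions. RefSeq promoter windows (build GRCm38.p6) run from 250 bases before to 50 bases after the annotated start, 5′ to 3′ on the gene's strand, with each CpG, the dinucleotide that carries most DNA methylation, in capitals. The regions are in mm9 and no sequence of that build was used, so the letters show the promoter and not the lost region itself.
Ndufb8: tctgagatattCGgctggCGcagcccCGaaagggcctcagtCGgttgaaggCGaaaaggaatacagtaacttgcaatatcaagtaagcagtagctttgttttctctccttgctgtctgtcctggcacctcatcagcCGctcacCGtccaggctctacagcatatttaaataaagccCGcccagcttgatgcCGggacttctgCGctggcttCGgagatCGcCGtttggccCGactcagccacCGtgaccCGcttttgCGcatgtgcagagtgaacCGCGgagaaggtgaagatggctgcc
Dhx30: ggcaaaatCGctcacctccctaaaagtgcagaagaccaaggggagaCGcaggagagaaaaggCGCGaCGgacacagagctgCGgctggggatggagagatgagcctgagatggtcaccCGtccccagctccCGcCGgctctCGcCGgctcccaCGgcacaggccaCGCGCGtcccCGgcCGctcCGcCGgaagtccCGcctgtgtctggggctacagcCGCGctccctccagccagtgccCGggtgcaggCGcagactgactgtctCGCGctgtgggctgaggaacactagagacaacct
Mep1a: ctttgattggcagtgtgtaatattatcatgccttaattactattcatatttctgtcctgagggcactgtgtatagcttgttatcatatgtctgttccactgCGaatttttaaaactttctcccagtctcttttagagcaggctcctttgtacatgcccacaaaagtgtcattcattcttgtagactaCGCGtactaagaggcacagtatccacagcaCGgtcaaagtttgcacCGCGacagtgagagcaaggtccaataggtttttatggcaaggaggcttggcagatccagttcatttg
The Ndufb8 window, on chromosome 19 at 44555393 to 44555692 of the minus strand, held 19 CpGs, and 28.4% of the windows of 27025 genes held as many or more. The Dhx30 window, on chromosome 9 at 110117567 to 110117866 of the minus strand, held 26, which 16.8% of windows reached, and it was the first of 2 windows listed for the gene. The Mep1a window, on chromosome 17 at 43502724 to 43503023 of the minus strand, held 6, which 56.4% reached. The lost region of Ndufb8 was centred 195 bp upstream of the start in both tables. That of Dhx30 was centred 286 bp downstream in the PL table and 346 bp downstream in the DCL table, and that of Mep1a 292 bp downstream in the PL table and 142 bp downstream in the DCL table. The distances are to the start of the listed mm9 transcript, which was shorter than the RefSeq gene in all 3 cases. Transcript and gene lengths were 5161 and 6872 bp for Ndufb8, 31263 and 33298 bp for Dhx30, and 28444 and 29820 bp for Mep1a. A printed window may therefore lie at another start than the one the distance was measured from. The windows printed for these genes were both CpG-rich and CpG-poor. The mature miRNAs of Mir7210 (RefSeq, GRCm38.p6, chromosome 14, plus strand) follow, with the seed, bases 2 to 8, in capitals; the lost region was centred 1459 bp upstream of this gene.
mmu-miR-7210-5p: uAACAUUGuagacaggcacaaag
mmu-miR-7210-3p: uUAUAUGUaaguaacaauguggcu
The arms have different seeds.

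Depth differed between libraries and set how finely a region could be measured. Values in the tables are reads of a region multiplied by a factor of the library, so low values step by the worth of 1 read. That worth was 0.907, 1.5 and 1.77 normalised reads in the PL libraries, against 1.05, 0.668 and 0.576 in the controls of the PL table. It was 3.14, 1.49 and 0.658 in the DCL libraries, against 0.975, 0.620 and 0.534 in the controls of the DCL table. The DCL library listed first is therefore the coarsest, and 99 of the 311 regions were at 0 in it, compared with 14 and 0 in the other DCL libraries, with 3, 13 and 16 in the PL libraries and with 0 in each control library. Summed over 3 libraries, a shared region rested on a median of 16 reads in PL (5 to 113), 17 in DCL (4 to 102) and 91 in control libraries (54 to 358). A count of 0 in a single library allows up to 3 reads, for counting error only.

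The shared regions held far less signal than control in both lesions, in every library, with the first-listed DCL library the lowest of its group. In the PL table, the median over regions of the group mean was 7.07 normalised reads in PL (1.81 to 46.6) and 21.9 in control (13.2 to 86.3). By library the median was 7.25, 6.00 and 8.87 in PL, against 22.1, 21.4 and 21.3 in control. In the DCL table, the median group mean was 6.05 in DCL (1.81 to 33.8) and 19.8 in control (12.2 to 62.7). By library the median was 6.27, 7.47 and 7.24 in DCL, against 20.5, 19.8 and 19.8 in control. Every lesion library had a lower median than every control library, and the library medians of a group lay close together. In bulk ganglia, fewer cells that carry the mark and less 5-hmC per cell cannot be told apart.

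**Figure D1:**
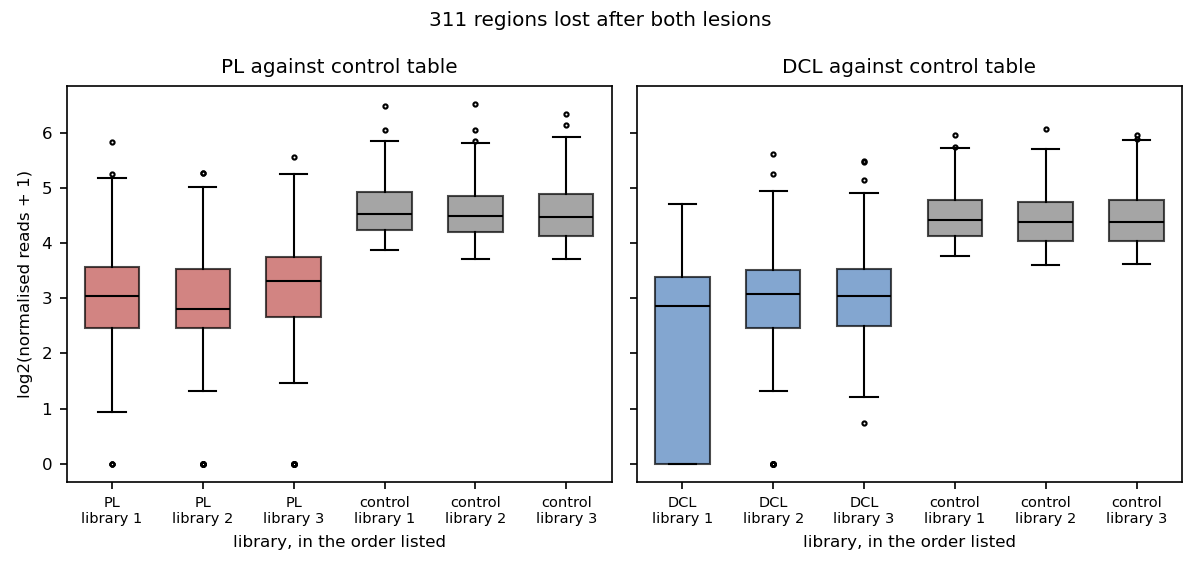
Box plots of log2(normalised reads + 1) over the 311 regions lost after both lesions, 1 box per library in its listed place, with boxes from the first to the third quartile, a line at the median and whiskers to 1.5 times the box height. Lesion libraries are left of control libraries in each table; all lesion boxes lie below all control boxes, and the first DCL box reaches down to 0, where 99 regions sit.

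The median log2 ratio, with 1 normalised read added to each mean, was -1.46 for PL to control (-2.41 to -0.79) and -1.50 for DCL to control (-2.55 to -0.84). Without that addition the regions were a median of 3.03-fold lower after PL (1.77 to 7.63) and 3.17-fold lower after DCL (1.86 to 8.51). Taken library by library against the control mean, the median log2 ratio was -1.48, -1.56 and -1.33 in the PL libraries, and -1.81, -1.45 and -1.37 in the DCL libraries. The first-listed DCL library stood lowest, and the DCL median was -1.39 without it. At least 2-fold losses were found in 301 regions after PL and 306 after DCL (98.3% of all lower regions in each table). At least 4-fold losses were found in 42 regions after PL (16.5% of all lower PL regions) and 75 after DCL (30.9% of all lower DCL regions). Only 15 reached 4-fold after both lesions, 10 of them in Megf10, Pdlim2, Zdhhc2, Syt1, Stim2, Gcdh, Ppp2r5c, Acvr1, Adamts3 and Urb1, and 5 between genes.

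Losses of shared regions were of similar size to losses listed after 1 lesion. A region is called lost after 1 lesion alone where no listed lower region of the other lesion overlapped it. It may still be lower after the other lesion without being listed, so these sets are not shown to be particular to 1 lesion. The 5756 regions lower after PL alone had a median log2 ratio of -1.51, against which the shared regions' -1.46 is slightly smaller. The 5723 regions lower after DCL alone had a median of -1.59, beside -1.50 for the shared regions. The largest losses, beyond -2.55 on the log2 scale, were all in unshared regions, which reached -3.94 after PL alone and -3.78 after DCL alone. Control signal at shared regions was a little higher, with a median of 21.9 normalised reads beside 20.2 in regions lost after PL alone, and of 19.8 beside 18.7 in regions lost after DCL alone. No test was made of these differences, since the same values chose the regions.

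**Figure D2:**
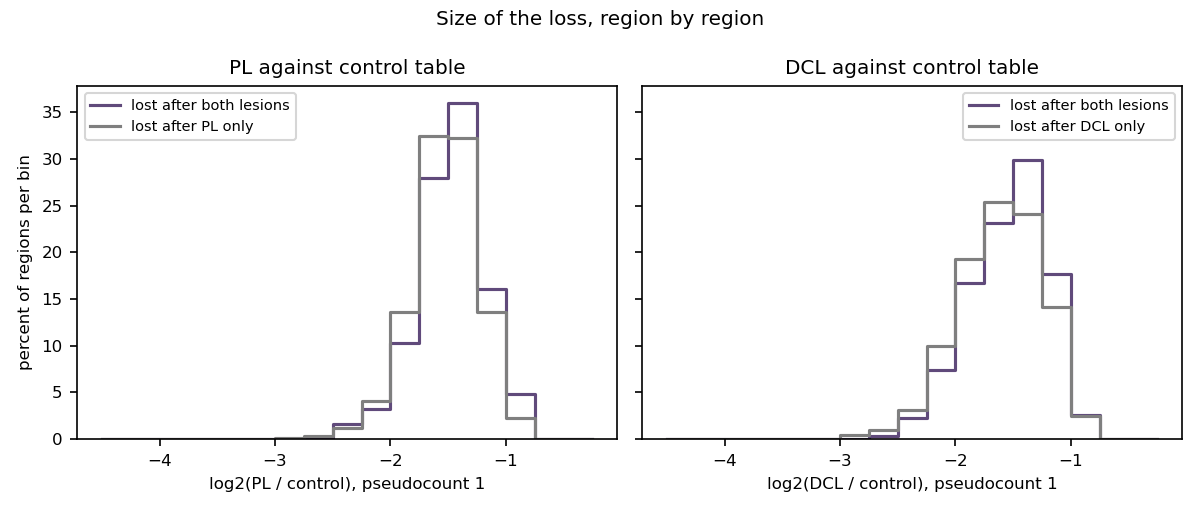
Percent of regions in bins of the log2 ratio of a lesion mean to the control mean (1 normalised read added), for PL at left and DCL at right, with the 311 shared regions in purple and the regions lost after that lesion alone in grey. The outlines lie nearly on each other, with medians of -1.46 and -1.51 for PL and of -1.50 and -1.59 for DCL.

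In all 311 regions, all 3 lesion libraries lay below all 3 control libraries in both tables. The same held for 100% of the lower PL regions (6066 of 6067) and 99.7% of the lower DCL regions, so this is a property of the lists. In the authors' deposited tables the adjusted p was under 0.05 in both contrasts for 308 of the 311 regions, with 99% of lower PL regions and 99.6% of lower DCL regions under it. It was under 0.01 in both for 170 regions, with 51.8% and 97.7% of lower PL and lower DCL regions under it. The exceptions at 0.05 were a region of Pard3b (PL adjusted p = 0.0831 in the authors' deposited table) and intergenic regions on chromosomes 1 and 3. The enrichment the authors give for each group, a ratio to a background they do not name, had a median of 1.34 in PL and 3.51 in control, and of 1.16 in DCL and 3.68 in control. It was under 1 in PL for 103 of the 311 regions (33.1%), with 43.9% of all lower PL regions under it, and in DCL for 128 (41.2%), with 45.6% of all lower DCL regions under it. In control it was under 1 for 1 shared region in each table, with 0.165% of all lower PL regions and 0.249% of all lower DCL regions under it. Most shared regions thus had an enrichment of 1 or more after each lesion.

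Paired regions mostly shared most of their length. Their median length was 220 bp in both tables and their median overlap 200 bp (20 to 320), with 207 pairs overlapping by 200 bp or more. Among the pairs just inside the rule, that of Stk39, a kinase of the SPAK family, overlapped by 20 bp, with log2 ratios of -1.19 for PL and -1.95 for DCL. Hace1, a ubiquitin ligase, overlapped by 40 bp with log2 ratios of -1.43 and -1.42. Just outside it, 19 lower PL regions lay within 200 bp of a lower DCL region without touching it. The nearest were directly adjacent, on chromosomes 4 and 9, with PL log2 ratios of -1.43 and -1.24. The 1 bp limit therefore separates regions with similar losses.

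In 34 pairs the bounds were identical in both tables, so PL, DCL and control can be set on 1 scale. At these regions the median of the group mean was 4.77 normalised reads in PL (1.91 to 18.0), 4.76 in DCL (1.96 to 17.1) and 16.8 in control (13.2 to 40.3), on the scale of the PL table. The log2 ratio of PL to DCL had a median of 0.13 (-0.92 to 0.85), and it was within 0.5 of 0 in 29 of the 34. PL was above DCL in 25 and below it in 9. The widest of these ratios were in Diap3, a formin that nucleates actin filaments, which was lower in PL (2.72, 3.00 and 0) than in DCL (6.76, 3.23 and 3.55), against 16.8, 12.7 and 13.8 in control libraries. At the opposite end, Ndufb8, a subunit of respiratory complex I, was higher in PL (0.910, 7.5 and 5.32) than in DCL (0, 4.83 and 1.42), against 21.0, 12.0 and 16.1 in control libraries. The PL and DCL libraries overlapped in Ndufb8 and were apart in Diap3, by less than the worth of 1 read, and in both genes all of them were below every control library.

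**Figure D3:**
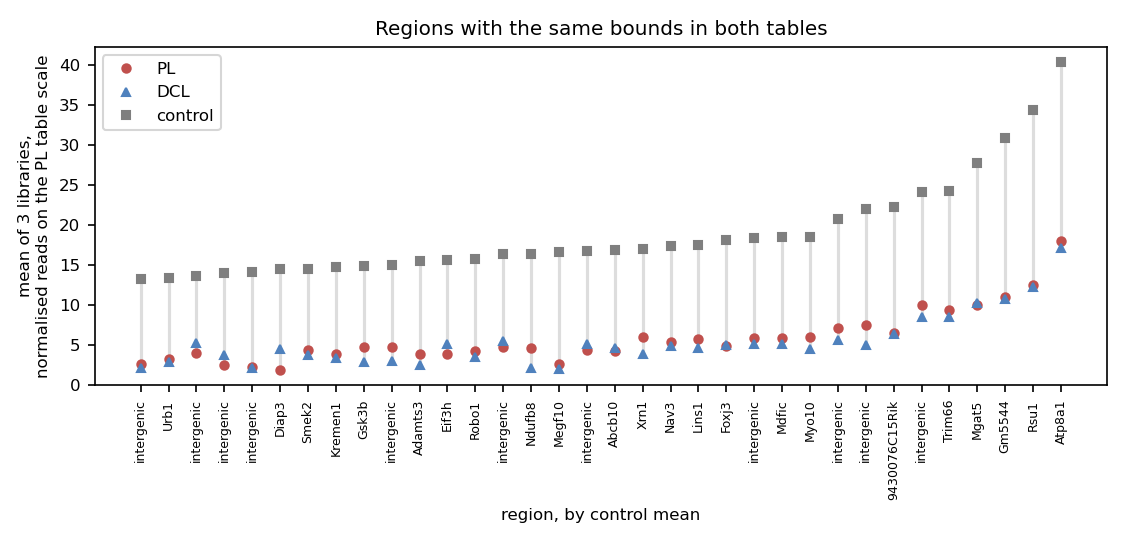
Mean of 3 libraries at the 34 regions with identical bounds in both tables, in normalised reads on the scale of the PL table, for PL (circles), DCL (triangles) and control (squares), ordered by control mean and labelled by gene. PL and DCL sit close together, at medians of 4.77 and 4.76, and below the control in each region, at a median of 16.8.

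Over all 311 pairs, the log2 ratio after PL minus that after DCL had a median of 0.09, with quartiles at -0.14 and 0.29. Since the control libraries are shared, this difference sets PL against DCL. The ratios were more than 1 apart in 2 pairs. One was the promoter region of Glmn, whose product is a regulator of cullin ubiquitin ligases, with 5.44, 3.0 and 5.32 in PL libraries, against 23.1, 17.4 and 18.4 in control libraries and with 18.8, 8.96 and 7.24 in DCL libraries, against 22.4, 19.8 and 22.97 in control libraries. The other was an intergenic region on chromosome 1 at chr1:90563041-90563340, where the paired regions shared only 60 bp, with 12.7, 10.5 and 7.1 in PL libraries, against 26.3, 22.04 and 25.9 in control libraries, and 0, 0 and 5.92 in DCL libraries, against 14.6, 11.2 and 15.5 in control libraries. Bounds differ between the tables, so such pairs compare neighbouring stretches and not a single one.

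By the tables' annotation, 183 of the 311 shared regions lay in gene bodies (58.8%, Wilson 95% interval 53.3 to 64.2), 34 in promoters (10.9%, 7.93 to 14.9) and 94 between genes (30.2%, 25.4 to 35.5). Among regions lost after PL alone, 59.8% lay in gene bodies, 7.71% in promoters (7.05 to 8.43) and 32.5% between genes. Among regions lost after DCL alone, the shares were 59.4%, 7.79% (7.13 to 8.52) and 32.8%. The promoter share was the one with the widest gap. Its interval overlapped those of both unshared sets, but both unshared shares lay just below it. Among shared regions with an adjusted p under 0.01 in both of the authors' deposited tables, the promoter share was 8.24%. The intervals cover counting error only. Of the 34 promoter regions, 1 was in the class nearest to the start (Ndufb8), 9 within the 1 kb class and 24 within the 3 kb class, with 15 centred upstream and 19 downstream of the start.

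**Figure D4:**
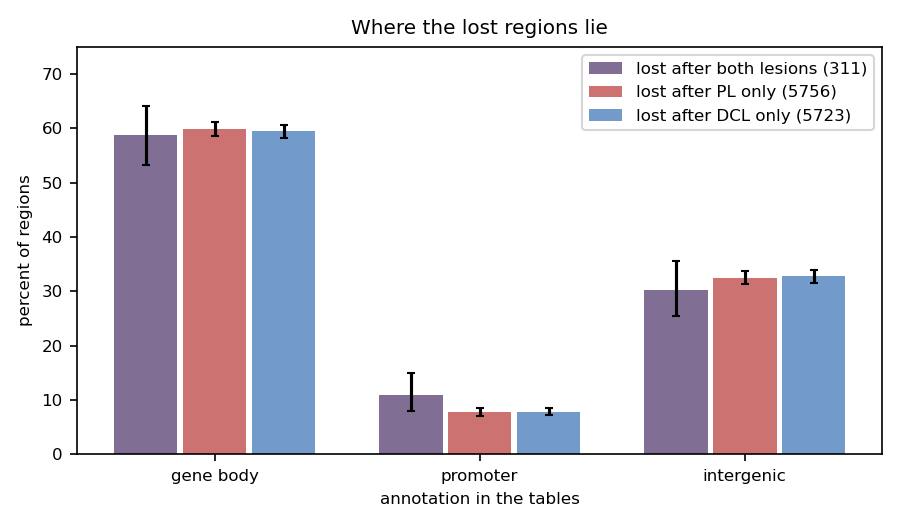
Percent of regions annotated to gene bodies, promoters or intergenic sequence, for the 311 shared regions, the 5756 lost after PL alone and the 5723 lost after DCL alone; error bars are Wilson 95% intervals. The 3 sets have similar shares, with promoters at 10.9%, 7.71% and 7.79%.

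Of the 34 promoter genes, 30 had a RefSeq window, with 1 to 57 CpGs and a median of 18. The median was 20 for 313 genes with a promoter region lost after PL alone and 19 for 328 genes with one lost after DCL alone, compared with 13 for 17492 protein-coding genes. The highest counts were in Tanc2 (57), Sestd1 (54) and Cdk14 (53). The windows of genes with a promoter loss were thus of similar CpG content whether the loss was shared or not. A window may lie at another start than that of the listed transcript.

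In gene bodies the losses were spread along the gene. Of 183 regions, 49, 50, 42 and 42 (26.8%, 27.3%, 23.0% and 23.0%) lay in 4 equal parts of the gene from its start to its end. The shares were 25.6%, 26.2%, 24.4% and 23.8% for regions lost after PL alone. They were 24.0%, 27.3%, 23.0% and 25.6% for regions lost after DCL alone. In the gene's first 5 kb lay 10 of the 183 (5.46%), beside 4.12% after PL alone and 4.17% after DCL alone. The genes were long, with a median of 112382 bp, close to 121129 bp for regions lost after PL alone and 118160 bp for those lost after DCL alone. The tables do not say whether a region is in an exon or an intron. All 20 chromosomes of the tables held shared regions, from 25 each on chromosomes 1 and 3 to 3 on X. The shared fraction of lower PL regions ranged between chromosomes from 3.07% on chromosomes 9 and 17 to 7.89% on X. No neighbouring pair lay within 10000 bp and 7 lay within 100000 bp, with a median gap of 4.81e+06 bp, so the regions were single and scattered.

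The 217 regions in gene bodies or promoters belonged to 212 genes. They were 7.68% of the 2762 genes that carried any region lower after PL, and 194 of them were among 21900 protein-coding RefSeq genes (0.886%). Only Pard3b (3 regions), Myo10, Robo1 and Stim2 (2 each) carried more than 1. Of the 212 genes, 72 (34.0%) also carried a region that was higher after PL, a share like the 33.9% of all genes with a lower PL region. After DCL, 172 (81.1%) also carried a higher region, beside 74.5% of all genes with a lower DCL region. A shared loss was therefore often 1 of several changed regions of a gene, in both directions, and 28 genes had no other listed region against control. The count behind the 28 was not made for other genes with a lower region. Expression of these genes was not analysed here.

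Across 20 lists of genes relevant to axon injury, 27 of 572 genes carried a shared lost region (4.72%), beside 0.886% of all protein-coding genes. The 27 genes were 11.9% of the 226 listed genes with any lower PL region, next to 7.68% over all genes with one. Neither comparison took gene length into account, and gene-body losses lay in long genes. The list of synaptic scaffolds held most, with 4 of 23 genes (Magi2, Shank3, Pclo and the polarity protein Pard3b, which the list counts with them). Axon guidance held 2 of 42 (Efna5 and Robo1), matrix receptors and matrix 2 of 25 (Dag1 and Sgcd), cytoskeleton and transport 2 of 31 (Kif5b and Nav3), and ion channels 2 of 35 (Kcnh7 and Kcna1). Any lower PL region was carried by 14, 29, 14, 17 and 13 genes of the scaffold, guidance, matrix, cytoskeleton and channel lists, in that order. Growth factor signalling held 2 of 29 (Flt1 and Insr) and the PI3K, mTOR and MAP kinase list 2 of 27 (Gsk3b and Mapk14). Histone modifiers held 2 of 35 (Kdm6a and Kdm4c). In the growth factor, kinase and histone lists, 10, 13 and 14 genes carried any lower PL region. A single gene was found in each of the lists of calcium and cyclic AMP signalling (Ppp3ca, of 35), neurotransmitter receptors (Grik2, of 32), BMP, Wnt and cytokine signalling (Acvr1, of 37), injury and regeneration genes (Creb5, of 32), DNA methylation (Tet3, of 22), sensory neuron markers (Syt1, of 25), vascular and fibroblast markers (Flt1, of 20), and lipid and redox metabolism (Gss, of 25). In the order of these lists, 21, 6, 15, 5, 4, 4, 4 and 8 genes carried any lower PL region. None with a shared loss was found among 30 adhesion molecules, 22 markers of satellite glia and Schwann cells, or 24 immune markers. Of these, 16, 1 and 0 carried any lower PL region. The lists were made with earlier results of these data known, so these counts are a description.

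**Figure D5:**
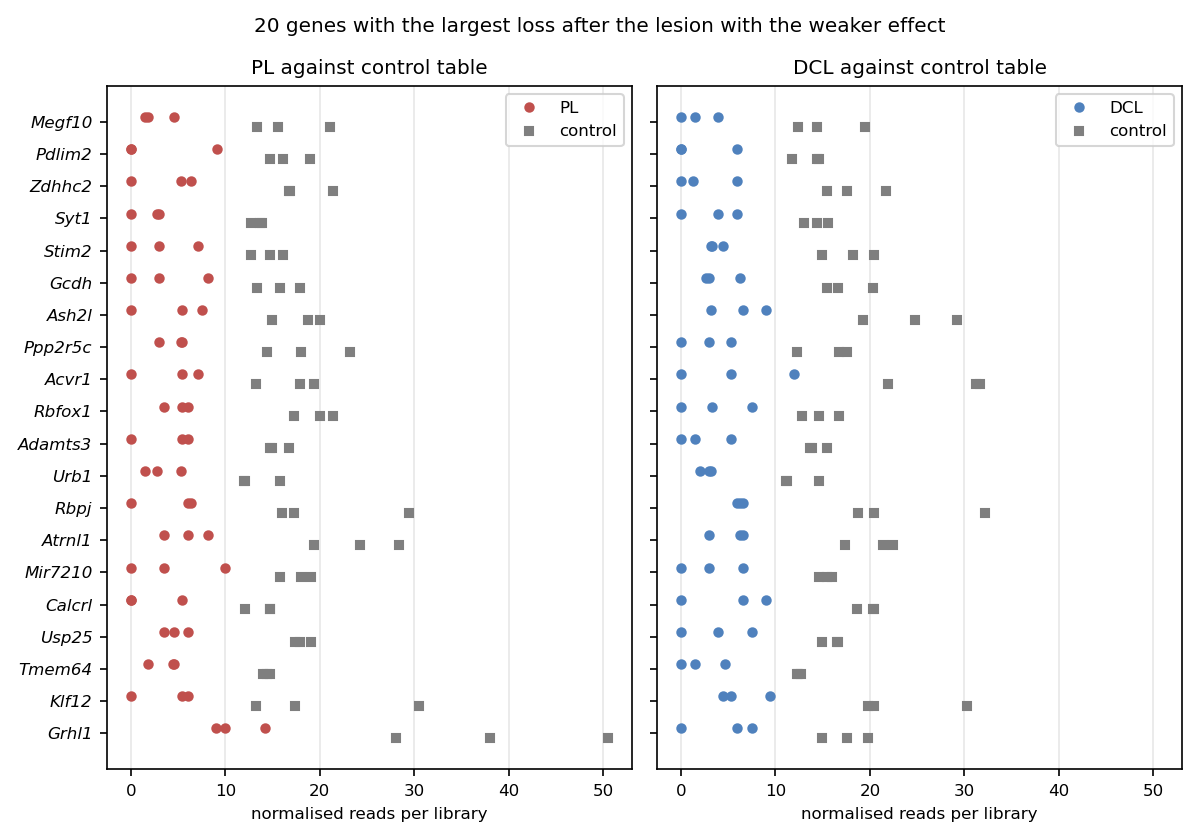
Normalised reads in every library at the 20 genes with the largest loss after the lesion with the weaker effect, with PL (left panel) and DCL (right panel) as circles and control as squares; genes run from the largest such loss at the top. In every gene all 3 lesion points lie left of all 3 control points, which was a condition for naming these genes. Many lesion points sit at 0.

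In what follows, values by library are normalised reads in listed order, coordinates are mm9 bounds of the PL region, folds are ratios of group means, and regions lie in gene bodies unless a promoter is named. Lesion libraries lay below control libraries in all 311 shared regions and in nearly all lower regions of the lists. Where a gene is said to have groups apart, this is therefore not particular to it. Roles were given to 124 of the 212 genes, with earlier results of these data known, and were not counted among other genes. The number of genes in a role therefore does not show that the role is more common among shared losses than elsewhere. Receptors and matrix proteins of axon guidance and cell contact made up 12 of the genes, with 13 regions a median of 3.34-fold lower after PL and 3.58-fold lower after DCL. Megf10, an engulfment receptor of glia, had the largest loss of all 212 genes by the weaker lesion. Its gene-body region at chr18:57331941-57332140 had 4.53, 1.5 and 1.77 in PL libraries, against 21.04, 13.4 and 15.6 in control libraries of the PL table, and 0, 1.49 and 3.95 in DCL libraries, against 19.5, 12.4 and 14.4 in control libraries of the DCL table. No lesion library reached above 5 normalised reads, and no control fell below 12, so the groups were far apart and the region was 6.41-fold lower after PL and 8.51-fold lower after DCL. Its means were 2.6 ± 1.68 in PL and 16.7 ± 3.96 in control libraries, and 1.81 ± 1.99 in DCL and 15.4 ± 3.65 in control libraries (SD, n = 3 each). Robo1, a receptor for the Slit guidance proteins, lost signal at a promoter region centred 1204 bp upstream of its start and at another 338676 bp downstream of it. At the promoter (chr16:72662081-72662300) it had 8.16, 1.5 and 5.32 in PL libraries, against 14.7, 15.4 and 21.3 in control libraries, and 0, 2.99 and 5.92 in DCL libraries, against 13.7, 13.6 and 18.7 in control libraries. In the gene body (chr16:73001961-73002180) it had 4.53, 4.5 and 3.55 in PL libraries, against 16.8, 14.03 and 16.1 in control libraries, and 0, 4.48 and 5.26 in DCL libraries, against 15.6, 13.01 and 14.96 in control libraries. The lesion libraries lay below the controls at both sites, which were 3.43-fold and 3.74-fold lower after PL and 5.16-fold and 4.47-fold lower after DCL. Adamts3 (chr5:90140401-90140600), a protease that trims procollagen, was 4.06-fold lower after PL and 6.37-fold lower after DCL, with 5.44, 6.0 and 0 in PL libraries, against 14.7, 16.7 and 14.98 in control libraries and 0, 1.49 and 5.26 in DCL libraries, against 13.7, 15.5 and 13.9 in control libraries. Its lesion values included a 0 in each group. Dag1 (chr9:108121041-108121460), dystroglycan, which ties laminin to the cytoskeleton, had the smallest adjusted p of the shared regions in the PL contrast (1.54e-05 in the authors' deposited table). It had 12.7, 10.5 and 8.87 in PL libraries, against 48.4, 43.4 and 38.6 in control libraries, a 4.07-fold loss, and 12.6, 7.47 and 13.2 in DCL libraries, against 30.2, 30.99 and 29.9 in control libraries, a 2.75-fold loss. Its lesion libraries lay close together and far below the controls. Gentler losses were seen in Efna5, an ephrin ligand that repels growth cones, which was 2.39-fold lower after PL and 2.03-fold lower after DCL, and in Sgcd, a sarcoglycan partner of dystroglycan, which was 2.34-fold lower after PL and 2.45-fold lower after DCL. Ptprd, a receptor phosphatase and synaptic organiser, was 3.34-fold lower after PL and 4.18-fold lower after DCL. Enzymes and core proteins of the proteoglycans were also present: Csgalnact1, which starts chondroitin sulfate chains, was 3.28-fold lower after PL and 4.37-fold lower after DCL, Gpc6, a glypican, 3.83-fold lower after PL and 3.15-fold lower after DCL, and Hs6st3, a heparan sulfate sulfotransferase, 3.2-fold lower after PL and 3.58-fold lower after DCL.

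Genes of the synapse and of vesicle traffic, with Pard3b counted among them, were 10. Their 12 regions were a median of 3.57-fold lower after PL and 3.04-fold lower after DCL. Syt1 (chr10:108219261-108219460), the calcium sensor of synaptic vesicle release, had 2.72, 3.0 and 0 in PL libraries, against 13.7, 12.7 and 13.8 in control libraries, and 0, 5.97 and 3.95 in DCL libraries, against 15.6, 13.01 and 14.4 in control libraries. Both lesion groups stayed below 6 normalised reads and every control was above 12, which made 7.03-fold and 4.34-fold losses. Its means were 1.91 ± 1.66 in PL and 13.4 ± 0.619 in control libraries of the PL table, and 3.31 ± 3.04 in DCL and 14.3 ± 1.29 in control libraries of the DCL table (SD, n = 3 each). Pard3b, a polarity protein related to Par3, carried 3 shared regions, at 602812, 667932 and 875362 bp from its start. The first (chr1:62288101-62288320) had 4.53, 3.0 and 3.55 in PL libraries, against 14.7, 14.03 and 14.4 in control libraries, and 0, 10.4 and 9.21 in DCL libraries, against 26.3, 25.4 and 23.5 in control libraries. The second (chr1:62353221-62353440) had 7.25, 0 and 5.32 in PL libraries, against 18.9, 20.7 and 20.2 in control libraries, and 3.14, 4.48 and 7.9 in DCL libraries, against 17.5, 19.2 and 18.2 in control libraries. The third (chr1:62560621-62560900) had 9.07, 20.99 and 24.8 in PL libraries, against 27.4, 36.1 and 34.00 in control libraries, and 9.41, 8.96 and 15.1 in DCL libraries, against 24.4, 33.5 and 30.99 in control libraries. Groups did not overlap at any of them, as at every shared region. The third, however, had the smallest PL loss of all shared regions (1.77-fold) and an adjusted p of 0.0831 in the authors' deposited table. Magi2 (chr5:20134621-20134860), a scaffold of the postsynaptic density, was 5.56-fold lower after PL and 3.69-fold lower after DCL, with 5.44, 1.5 and 1.77 in PL libraries, against 14.7, 18.7 and 14.98 in control libraries and 0, 8.96 and 2.63 in DCL libraries, against 12.7, 16.7 and 13.4 in control libraries. Its DCL libraries spread from 0 to 8.96 and still lay below the lowest control. Shank3, another postsynaptic scaffold, was 2.88-fold lower after PL and 2.63-fold lower after DCL, and Pclo, the presynaptic scaffold piccolo, 2.7-fold lower after PL and 3.28-fold lower after DCL. Grik2, a kainate receptor subunit, was 4.3-fold lower after PL and 3.17-fold lower after DCL, and Sh3gl2, endophilin, which shapes recycling vesicles, 4.5-fold lower after PL and 2.77-fold lower after DCL.

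Calcium, cyclic nucleotide and channel genes were 8, with 9 regions a median of 2.89-fold lower after PL and 3.12-fold lower after DCL. Stim2, a calcium sensor of the endoplasmic reticulum that opens store-operated channels, carried 2 regions, at 18288 and 50258 bp from its start. The nearer (chr5:54407921-54408180) had 9.97, 10.5 and 10.7 in PL libraries, against 29.5, 26.1 and 23.1 in control libraries, and 12.6, 10.4 and 6.58 in DCL libraries, against 25.3, 24.2 and 21.4 in control libraries. The farther (chr5:54439921-54440120) had 0, 3.0 and 7.1 in PL libraries, against 14.7, 12.7 and 16.1 in control libraries, and 3.14, 4.48 and 3.29 in DCL libraries, against 20.5, 14.9 and 18.2 in control libraries. The farther lost more, being 4.31-fold lower after PL and 4.9-fold lower after DCL, compared with 2.52-fold and 2.40-fold at the nearer. Ppp3ca, the catalytic subunit of calcineurin, was 2.27-fold lower after PL and 2.48-fold lower after DCL, and Rcan3, of the calcineurin regulator family, 3.04-fold lower after PL and 3.5-fold lower after DCL. Among channels, Kcna1, a voltage-gated potassium channel of axons, was 2.89-fold lower after PL and 3.48-fold lower after DCL, Kcnh7, another potassium channel, 4.01-fold lower after PL and 2.45-fold lower after DCL, and Scn3a, a sodium channel, 2.99-fold lower after PL and 3.12-fold lower after DCL. Pde11a (chr2:75906841-75907080), a phosphodiesterase, kept more signal, with 31.7, 23.99 and 23.1 in PL libraries, against 46.3, 49.4 and 53.02 in control libraries and 18.8, 14.9 and 43.4 in DCL libraries, against 49.7, 51.4 and 57.2 in control libraries. One of its DCL libraries lay within 7 normalised reads of the lowest control.

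Genes of actin and cell shape were 12, with 13 regions a median of 3.09-fold lower after PL and 3.19-fold lower after DCL. Pdlim2 (chr14:70570801-70571000), a PDZ-LIM adaptor of the actin cytoskeleton, had 9.07, 0 and 0 in PL libraries, against 18.9, 14.7 and 16.1 in control libraries, and 0, 0 and 5.92 in DCL libraries, against 14.6, 11.8 and 14.4 in control libraries. Of its 6 lesion libraries 4 held no read, and the rest were below every control, a 5.49-fold and a 6.9-fold loss. Diap3, described above, was 7.58-fold lower after PL and 3.2-fold lower after DCL. Myo10, the motor of filopodia, carried 2 regions. The first (chr15:25595421-25595620) had 8.16, 4.5 and 5.32 in PL libraries, against 18.9, 19.4 and 17.3 in control libraries, and 3.14, 0 and 9.21 in DCL libraries, against 17.5, 17.97 and 16.03 in control libraries. The second (chr15:25723521-25723740) had 7.25, 13.5 and 5.32 in PL libraries, against 25.2, 22.7 and 23.6 in control libraries, and 6.27, 5.97 and 7.9 in DCL libraries, against 24.4, 19.2 and 18.7 in control libraries. Losses at the regions were alike, at 3.09-fold and 2.75-fold after PL and 4.17-fold and 3.09-fold after DCL. Activators of Rac and Cdc42 were among them, since Dock1 was 3.5-fold lower after PL and 2.57-fold lower after DCL and Dock9 2.88-fold lower after PL and 2.44-fold lower after DCL. Enah, which lengthens actin filaments in growth cones, was 3.03-fold lower after PL and 3.94-fold lower after DCL, and Limk2, a kinase that inactivates cofilin, 2.49-fold lower after PL and 2.78-fold lower after DCL.

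The 7 microtubule and motor genes were a median of 2.78-fold lower after PL and 2.62-fold lower after DCL. Kif5b (chr18:6205881-6206140), the heavy chain of conventional kinesin, had 11.8, 22.5 and 23.1 in PL libraries, against 39.98, 34.1 and 38.04 in control libraries, and 9.41, 14.9 and 12.5 in DCL libraries, against 29.2, 25.4 and 30.99 in control libraries. Its groups did not overlap, as at every shared region, and its losses were 1.95-fold after PL and 2.32-fold after DCL. Nav3, a neuron navigator that binds microtubule ends, was 3.21-fold lower after PL and 3.55-fold lower after DCL. Dync1li1, a light intermediate chain of dynein, was 3.32-fold lower after PL and 2.46-fold lower after DCL, Dclk1, a doublecortin-like kinase, 2.58-fold lower after PL and 2.44-fold lower after DCL, and Mark1, a kinase of microtubule-associated proteins, 2.04-fold lower after PL and 2.62-fold lower after DCL.

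Growth factor and receptor signalling held 11 genes, with medians of 2.86-fold lower after PL and 3.25-fold lower after DCL. Calcrl (chr2:84257061-84257260), the receptor that with its partner RAMP1 binds the sensory peptide CGRP, had 5.44, 0 and 0 in PL libraries, against 14.7, 14.7 and 12.1 in control libraries, and 0, 8.96 and 6.58 in DCL libraries, against 20.5, 18.6 and 20.3 in control libraries. By the ratio of means it had the largest loss of all 311 regions after PL (7.63-fold), resting on a single PL library with reads. With 1 normalised read added to each mean, Diap3 lost slightly more (log2 ratio -2.41, against -2.40 for Calcrl). The Calcrl loss after DCL was 3.82-fold. Acvr1 (chr2:58307881-58308080), a type I receptor for bone morphogenetic proteins, had 5.44, 0 and 7.1 in PL libraries, against 17.9, 19.4 and 13.3 in control libraries, and 0, 11.9 and 5.26 in DCL libraries, against 31.2, 31.6 and 21.9 in control libraries. Each lesion group held a library at 0, and every lesion value was below the controls of its table. Insr, the insulin receptor, was 2.57-fold lower after PL and 2.45-fold lower after DCL, Flt1, a receptor for vascular endothelial growth factor, 2.82-fold lower after PL and 3.25-fold lower after DCL, Kitl, the ligand of the Kit receptor, 2.86-fold lower after PL and 2.84-fold lower after DCL, and Il34, a ligand of the CSF1 receptor, 3.34-fold lower after PL and 3.48-fold lower after DCL.

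Among 6 kinases and phosphatases, medians were 3.23-fold after PL and 4.08-fold after DCL. Ppp2r5c (chr12:111694341-111694580), a regulatory subunit of protein phosphatase 2A, had 5.44, 3.0 and 5.32 in PL libraries, against 23.1, 18.03 and 14.4 in control libraries, and 0, 2.99 and 5.26 in DCL libraries, against 17.5, 16.7 and 12.3 in control libraries. Gsk3b (chr16:38221921-38222120), a kinase of Wnt signalling and of microtubule regulation in axons, had 2.72, 4.5 and 7.1 in PL libraries, against 14.7, 16.7 and 13.3 in control libraries, and 0, 5.97 and 1.97 in DCL libraries, against 13.7, 15.5 and 12.3 in control libraries. Both genes held under 8 normalised reads in each lesion library and over 12 in each control library. Mapk14, the p38α kinase, was 3.27-fold lower after PL and 3.6-fold lower after DCL, with lesion libraries between 4.48 and 6.27 normalised reads.

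Transcription factors and their cofactors were 15, with medians of 2.76-fold after PL and 3.00-fold after DCL. Rbpj (chr5:54025081-54025280), the DNA-binding effector of Notch signalling, had 6.35, 6.0 and 0 in PL libraries, against 29.5, 16.03 and 17.3 in control libraries, and 6.27, 5.97 and 6.58 in DCL libraries, against 32.2, 20.4 and 18.7 in control libraries. Maml3, a coactivator of the same complex, was 2.38-fold lower after PL and 3.47-fold lower after DCL. Klf12 (chr14:100320741-100320940), a zinc-finger repressor, had 5.44, 6.0 and 0 in PL libraries, against 30.5, 17.4 and 13.3 in control libraries, and 9.41, 4.48 and 5.26 in DCL libraries, against 30.2, 20.4 and 19.8 in control libraries. In Rbpj and Klf12 the first-listed control library stood well above the other controls, and the lesion libraries were below all of them. Grhl1 (chr12:25258901-25259220), a grainyhead factor of epithelia, had 9.97, 9.0 and 14.2 in PL libraries, against 50.5, 28.1 and 38.04 in control libraries at its promoter, and 0, 7.47 and 5.92 in DCL libraries, against 17.5, 14.9 and 19.8 in control libraries. Control signal there differed between the tables, whose regions had different bounds, while the losses were alike (3.52-fold and 3.9-fold). Creb5, a CREB family factor, was 2.56-fold lower after PL and 2.65-fold lower after DCL, with DCL libraries that spread from 0 to 25.7. Sox5 (chr6:144056121-144056460), a factor of the SoxD group, held the most 5-hmC of the 311 regions in all 3 groups and had the mildest DCL loss by the ratio of means, with 56.2, 37.5 and 46.1 in PL libraries, against 88.4, 90.8 and 79.5 in control libraries and 9.41, 47.8 and 44.1 in DCL libraries, against 61.4, 65.7 and 60.9 in control libraries. Its losses of 1.85-fold and 1.86-fold still left all lesion libraries below all controls.

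Chromatin genes were 10, with medians of 2.70-fold after PL and 2.72-fold after DCL. Tet3 (chr6:83325361-83325560), the dioxygenase that makes 5-hmC and the only TET gene with a shared lost region, had 14.5, 3.0 and 14.2 in PL libraries, against 25.2, 28.1 and 28.2 in control libraries at a gene-body region 66212 bp from its start, and 18.8, 10.4 and 15.1 in DCL libraries, against 31.2, 37.2 and 33.1 in control libraries. Its means were 10.6 ± 6.55 in PL and 27.2 ± 1.67 in control libraries, and 14.8 ± 4.19 in DCL and 33.8 ± 3.06 in control libraries (SD, n = 3 each). Its groups did not overlap, as at every shared region. Its losses were 2.57-fold after PL and 2.29-fold after DCL, with adjusted p-values of 0.00983 and 0.000633 in the authors' deposited tables. The gene also carried 1 region higher after PL and 3 higher after DCL, and 3 lower after DCL in all. Ash2l (chr8:26928241-26928460), a core subunit of histone H3 lysine 4 methyltransferases, had 5.44, 7.5 and 0 in PL libraries, against 19.99, 18.7 and 14.98 in control libraries, and 3.14, 8.96 and 6.58 in DCL libraries, against 29.2, 24.8 and 19.2 in control libraries. It was 4.15-fold lower after PL and 3.92-fold lower after DCL. Kdm6a, a histone H3 lysine 27 demethylase, was 2.67-fold lower after PL and 2.62-fold lower after DCL, and Kdm4c, a lysine 9 demethylase, 2.64-fold lower after PL and 3.22-fold lower after DCL. Chd2, a chromatin remodeller, was 3.06-fold lower after PL and 4.61-fold lower after DCL, and Arid1b, a subunit of the BAF complex, 2.34-fold lower after PL and 2.44-fold lower after DCL.

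RNA-binding and RNA-processing genes were 10, with medians of 2.65-fold after PL and 2.82-fold after DCL. Rbfox1 (chr16:6919021-6919260), a neuronal splicing factor, had 5.44, 6.0 and 3.55 in PL libraries, against 19.99, 21.4 and 17.3 in control libraries, and 0, 7.47 and 3.29 in DCL libraries, against 14.6, 16.7 and 12.8 in control libraries, at a region 1034250 bp from its start. It was 3.91-fold lower after PL and 4.11-fold lower after DCL. Dhx30 (chr9:110017701-110017900), an RNA helicase whose promoter is printed above, had 2.72, 9.0 and 10.7 in PL libraries, against 15.8, 19.4 and 20.8 in control libraries, and 6.27, 14.9 and 3.29 in DCL libraries, against 19.5, 20.4 and 26.2 in control libraries. Its losses were 2.5-fold after PL and 2.7-fold after DCL. Xrn1, the exonuclease that degrades decapped mRNA, was 2.84-fold lower after PL and 4.46-fold lower after DCL.

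Mitochondrial and metabolic genes were 14, with medians of 2.97-fold after PL and 3.00-fold after DCL. Ndufb8 (chr19:44630001-44630200) had 0.910, 7.5 and 5.32 in PL libraries, against 21.04, 12.02 and 16.1 in control libraries at the region nearest to a start site by the PL bounds, and 0, 4.48 and 1.32 in DCL libraries, against 19.5, 11.2 and 14.96 in control libraries. Its DCL loss, 7.86-fold, was larger than its PL loss, 3.58-fold, and rested on few reads. Gcdh (chr8:87414641-87414840), a mitochondrial enzyme of lysine breakdown, had 8.16, 3.0 and 0 in PL libraries, against 15.8, 13.4 and 17.9 in control libraries, and 6.27, 2.99 and 2.63 in DCL libraries, against 16.6, 15.5 and 20.3 in control libraries. All of its lesion libraries lay below its lowest control, and it was 4.21-fold lower after PL and 4.4-fold lower after DCL. Nmnat2 (chr1:154806821-154807020), the enzyme that makes NAD in axons and keeps cut axons from degenerating while it lasts, had 2.72, 1.5 and 7.1 in PL libraries, against 13.7, 14.03 and 15.6 in control libraries, and 0, 8.96 and 7.24 in DCL libraries, against 17.5, 16.7 and 19.2 in control libraries. It was 3.82-fold lower after PL and 3.3-fold lower after DCL, with groups apart in both tables, as at every shared region. Gss, which makes glutathione, was 2.6-fold lower after PL and 2.78-fold lower after DCL, and Mff, a mitochondrial fission factor, 3.07-fold lower after PL and 2.96-fold lower after DCL.

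Genes of the ubiquitin pathway were 9, with medians of 3.03-fold after PL and 3.58-fold after DCL. Usp25 (chr16:77085101-77085380), a deubiquitinating enzyme, had 4.53, 6.0 and 3.55 in PL libraries, against 17.9, 17.4 and 19.02 in control libraries, and 0, 7.47 and 3.95 in DCL libraries, against 16.6, 14.9 and 16.6 in control libraries. Its lesion values were all under 8 and its controls all over 14, so it was 3.86-fold lower after PL and 4.2-fold lower after DCL. Trim9, a ubiquitin ligase of axon branching and guidance, was 2.41-fold lower after PL and 3.0-fold lower after DCL at a promoter region, and Znrf2, a ligase found in neurons, 3.59-fold lower after PL and 5.02-fold lower after DCL.

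The remaining 88 genes were not grouped by role, and 5 of them were among the 20 with the largest losses. Zdhhc2 (chr8:41519581-41519840), a palmitoyltransferase of postsynaptic proteins, had 6.35, 0 and 5.32 in PL libraries, against 16.8, 21.4 and 16.7 in control libraries, and 0, 5.97 and 1.32 in DCL libraries, against 17.5, 21.7 and 15.5 in control libraries. Urb1 (chr16:90808981-90809180), a ribosome assembly factor, had 2.72, 1.5 and 5.32 in PL libraries, against 15.8, 12.02 and 12.1 in control libraries at a promoter region, and 3.14, 2.99 and 1.97 in DCL libraries, against 14.6, 11.2 and 11.2 in control libraries. No lesion library of either gene came near its controls, and Zdhhc2 was 4.71-fold lower after PL and 7.51-fold lower after DCL, Urb1 4.18-fold lower after PL and 4.57-fold lower after DCL. Atrnl1 (chr19:58080021-58080280), an attractin-like membrane protein, was 4.06-fold lower after PL and 3.86-fold lower after DCL, and Tmem64 (chr4:15204341-15204560), a transmembrane protein, 4.0-fold lower after PL and 6.12-fold lower after DCL. The region upstream of Mir7210 (chr14:24906541-24906740) had 9.97, 0 and 3.55 in PL libraries, against 15.8, 18.03 and 19.02 in control libraries, and 0, 2.99 and 6.58 in DCL libraries, against 14.6, 15.5 and 16.03 in control libraries. One of its PL libraries was high and another at 0, and the losses were 3.91-fold and 4.82-fold. Mep1a (chr17:43639321-43639540), a subunit of the protease meprin whose promoter is printed above, had 7.25, 1.5 and 1.77 in PL libraries, against 16.8, 14.7 and 16.1 in control libraries, and 9.41, 5.97 and 5.26 in DCL libraries, against 16.6, 16.1 and 18.2 in control libraries. Its loss was larger after PL (4.53-fold) than after DCL (2.46-fold), over regions whose centres differed by 150 bp.

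Between genes, the 3 regions with the largest loss by the weaker lesion lay on chromosomes 13, 16 and 1. The first, at chr13:59408041-59408260, had 1.81, 1.5 and 3.55 in PL libraries, against 14.7, 12.7 and 14.98 in control libraries, and 0, 0 and 5.92 in DCL libraries, against 13.7, 11.8 and 13.9 in control libraries. The second, in a gene desert at chr16:75291681-75291880, had 0, 6.0 and 1.77 in PL libraries, against 13.7, 12.7 and 13.3 in control libraries, and 3.14, 1.49 and 1.32 in DCL libraries, against 12.7, 11.8 and 12.3 in control libraries. The third, at chr1:191347221-191347420, had 7.25, 1.5 and 1.77 in PL libraries, against 15.8, 18.03 and 14.4 in control libraries, and 0, 2.99 and 7.24 in DCL libraries, against 14.6, 17.4 and 14.96 in control libraries. All were more than 4-fold lower after both lesions, so losses outside genes were about as deep as the deepest in genes. Of the 94 intergenic regions, 15 were in gene deserts.

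Of 9 genes looked up by name for their place in demethylation or axon injury, only Tet3 had a shared lost region. Tet1 had 2 regions lower and 1 higher after DCL, and Tet2 had 2 higher after DCL. Sox11, a factor of the regeneration programme, had 1 region lower after DCL. Gap43, a growth cone protein, and Bdnf, a neurotrophin, had 1 region each that was higher after PL. Atf3, Jun and Sprr1a, which injured sensory neurons are known to induce, had no listed region against control. The values of regions that the tables do not list are not known.

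The direct contrast of PL with DCL uses the same lesion libraries that chose the regions, so its counts are a description. Its table listed 22944 regions, of which 75.1% were lower and 24.9% higher after PL than after DCL. It touched 3 of the 311 shared regions (0.965%), compared with 532 of the regions lost after PL alone (9.24%) and 448 of those lost after DCL alone (7.83%). The 532 split into 531 lower and 1 higher after PL, and the 448 touched 430 regions that were higher after PL and 19 that were lower. These shares and splits follow from how the sets were chosen, since shared regions are low after both lesions and the others are listed as low after 1 of them. Values that follow belong to the differing regions, on the scale of this contrast, and not to the shared lost regions they touch. The first of the 3 shared regions was upstream of Lrch3 (chr16:32913201-32913580). The differing region there, chr16:32913161-32913400, held 8.68, 8.23 and 6.13 in PL, against 32.8, 23.3 and 19.99 in DCL libraries (log2 ratio of PL to DCL -1.60, adjusted p = 0.00148 in the authors' deposited table). The second was intergenic (chr4:114482101-114482380). Its differing region, chr4:114482121-114482380, held 6.20, 8.23 and 7.36 in PL, against 23.4, 22.2 and 16.1 in DCL libraries (-1.38, adjusted p = 0.00327 in the authors' deposited table). The third was in Ece1 (chr4:137451621-137451840), which makes the peptide endothelin. Its differing region, chr4:137451441-137451640, held 16.1, 30.9 and 30.7 in PL, against 9.36, 7.75 and 10.2 in DCL libraries (1.41, adjusted p = 0.00492 in the authors' deposited table). The Lrch3 difference shared 200 of its 240 bp with the region lost after PL and 0 bp with that lost after DCL. The chromosome 4 difference lay with all of its 260 bp in the region lost after PL and shared 40 bp with that lost after DCL. The Ece1 difference shared 20 bp with the region lost after PL and ended 20 bp short of that lost after DCL.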

How the data were processed

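5-hmC-bearing fragments of ganglion DNA were captured and sequenced in 9 libraries, 3 each of PL, DCL and control. The submitters' processing notes list the mm9 build, MACS2 2.1.1, Bowtie2 2.2.0 and SAMtools 0.1.19 without saying what each did; which program called and tested the regions is not stated there. The tables the authors deposited list only regions already selected for a difference. Per the file headers, each cell holds 3 normalised read counts, 1 per library, and no cell gives a library's replicate number. The averages the authors deposited are group means of this signal, and the enrichment they deposited is a ratio to an unnamed background. Log2 ratios and the adjusted p-value are also in the tables the authors deposited; the log2 ratios printed were computed anew with a pseudocount of 1.

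Low values were whole multiples of the worth of 1 read (100% within 0.1 of a step, checked below 30 steps), which gave reads per region and showed that library order is the same in all tables. The shared regions were found by overlap of at least 1 bp, and the steps were tested on simulated tables. Since unlisted windows are not analysed here, the count model that was planned could not be fitted, and no test was made of the contrasts that chose the regions. Regions named are the 20 in genes with the largest loss after the weaker lesion (adjusted p under 0.05 and libraries apart in both tables, control means of at least 10), genes with more than 1 region, members of 20 gene lists (1 of which is not reported here), 9 genes looked up by name, 3 intergenic regions and those in the PL against DCL table; further genes are examples by known role, chosen after their values were seen. The members, lists and roles were chosen with earlier results of these data known. Gene symbols are those of the tables, and all 212 matched RefSeq (202 by current symbol). Tables were handled with pandas 2.3.3 and numpy 2.4.6, intervals came from scipy 1.17.1 and plots from matplotlib 3.10.9, under python 3.11.15.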

Additional observations from a re-analysis of the deposited data

Results flagged for a closer look

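Of the 311 regions, 3 overlapped a region that the authors' deposited table of PL against DCL lists as different between the lesions. At those differing regions, the log2 ratio of PL to DCL was -1.60 upstream of Lrch3, -1.38 between genes on chromosome 4 and 1.41 in Ece1. The differing stretch shared 200, 260 and 20 bp with the region lost after PL in these cases, and 0 bp, 40 bp and no base with the region lost after DCL.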

How the results depend on the processing

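The count of 311 shared regions was 286 when at least 50% of each region had to overlap, 308 with an adjusted p under 0.05 in both of the authors' deposited tables, 297 with losses of at least 2-fold in both, and 310 without unplaced sequence and the highest control signal. It was 34 with identical bounds and 170 with an adjusted p under 0.01 in both of the authors' deposited tables. Losses of at least 1.5-fold in both, an alternative chosen after seeing the data, left 311. When each library was left out in turn, 310 to 311 regions kept a loss of at least 1.5-fold. In every shared region each lesion library lay below each control library, so leaving out any library could not reverse a loss. Only the size of the loss could change, and these counts are no independent evidence for the losses. With each library left out in turn the median log2 ratio ranged from -1.51 to -1.40 for PL and from -1.63 to -1.39 for DCL. A pseudocount of 5 moved it to -1.10 for PL and -1.15 for DCL. Gene-body and promoter shares and the 212 genes moved by less than their limits under the alternatives run. So did the 3 regions that differed between PL and DCL. With gene bodies alone, 179 genes were left. No result reversed, but the choice of regions left no room for a reversal in the direction of the losses. No paired analysis was possible because the tables hold no replicate number for a library. The planned count model and its settings (edgeR or DESeq2 scaling, a filter on low counts, a block) were not run, because the tables list only regions selected for a difference. Depth limits single regions: a shared region rested on a median of 16 reads over the PL libraries and 17 over the DCL libraries, and the first-listed DCL library gave 2 reads at the median.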
